A study of Rattus norvegicus with 11 samples.

Results

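The miR-130 and miR-301 family was followed in the livers of 11 rats by small RNA sequencing. The animals were males of the outbred Sprague-Dawley strain and were 4 weeks old at the start. Its members were all rows of the deposited microRNA table named miR-130a, miR-130b, miR-301a or miR-301b, either arm, and 7 of 1331 rows met this rule. They were both arms of miR-130a, miR-130b and miR-301a, and miR-301b-3p. For 7 days, 6 Control rats received chow with intravenous 0.9% saline, and 5 TPN rats received total parenteral nutrition, in which nutrients are infused into a vein. The series is titled as a study of GPX4, an enzyme that protects membrane lipids from ferroptosis, in the liver disease that accompanies failure of the gut; no lesion or injury score was analysed here. Values were counts per 1000000 (CPM) of the reads assigned to the table, in which 1 read was worth between 0.0676 CPM (TPN 8, 14788757 reads) and 0.712 CPM (Control 12, 1404858 reads). Control 5, 12 and 19 had the fewest reads and stood apart by 0.517%, 2.0% and 0.560% of reads in predicted microRNAs, against 0.0965% to 0.145% in the other libraries. The hepatocyte markers miR-122, miR-192, miR-194 and miR-148a, chosen as a check of the labelled tissue, together held 564720 to 797115 CPM of every library. Of these, miR-122-5p alone ran from 21802 CPM (Control 19) to 335322 CPM (Control 18).

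MicroRNAs guide Argonaute proteins to messenger RNAs through the seed, bases 2 to 8 of the mature strand, and lower the output of the paired message. The miR-130 and miR-301 microRNAs share a seed on the 3p arm and are known, mostly from human and mouse cells, for targeting Pparg, the adipocyte regulator of fat storage, and Abca1, the cholesterol exporter. In liver, miR-130b and miR-301b have been tied to cholesterol export in this way, while miR-130a was described in human endothelial cells as a promoter of vessel growth and miR-301a as an activator of NF-kB signalling in human tumour cells.

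The mature 3p strands of 3 members are shown first, since the family is defined by them. Capitals mark the seed, and the sequences are RefSeq's on the rat build GRCr8.
miR-130a-3p: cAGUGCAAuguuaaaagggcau
miR-130b-3p: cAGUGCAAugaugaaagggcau
miR-301b-3p: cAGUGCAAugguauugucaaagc
RefSeq places these strands at chr3:90229240-90229261 (minus strand), chr11:97384430-97384451 (plus) and chr11:97384077-97384099 (plus). The sequences are alike over the first 10 bases. miR-130a-3p and miR-130b-3p differ at 2 of 22 positions, so reads of one with sequencing errors could be assigned to the other, and how the authors divided such reads is not given in the sources used here. miR-301b-3p differs from miR-130a-3p at 9 of 22 positions and from miR-130b-3p at 10. Of 693 mature names in the RefSeq rat table, 3 (0.433%) carry this seed, and they are the strands above; a mature sequence was matched for 6 of the 7 member rows, all but miR-301a-3p.

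The passenger side carries the partner of the seed. Capitals below mark UUGCACU, the reverse complement of the seed, which 8 of the 693 mature sequences (1.15%) hold on the strand as written.
miR-130b-5p: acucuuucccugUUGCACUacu
miR-301a-5p: gcucugacuuuaUUGCACUac
miR-301b-5p: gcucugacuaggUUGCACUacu
In miR-130a-5p these letters are absent, and its own seed is marked instead.
miR-130a-5p: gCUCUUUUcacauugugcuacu
The genes lie at 3 places in the rat genome. Mir301b and Mir130b are neighbours on chromosome 11 with 269 bases between their hairpins, inside the protein-coding gene 2610318N02Rikl. Mir301a, on chromosome 10, lies within the span of Ska2, a gene of chromosome segregation, and of the overlapping Prr11. Mir130a, on chromosome 3, overlaps no protein-coding gene in RefSeq but shares its place with Mir3590, which is read from the opposite strand. Whether the authors counted by strand is not given, and miR-3590-3p had 6 reads in 3 rats.

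miR-130a-3p was the main member in every liver. It held 2888 of the 3121 reads of the family over all rats, or 92.5% (exact Clopper-Pearson 95% interval 91.6% to 93.4%, counting error only), and between 87.5% (Control 5) and 98.2% (Control 12) in single rats. By mean CPM it ranked 114th of 533 rat-named rows, miR-301a-3p ranked 270th, and the other 5 members ranked 311th or lower. In each of 11 rats miR-130a-3p exceeded miR-301a-3p, the next member by mean level, by a log2 difference of 4.09 ± 0.78 (SD, n = 11; 2-sided exact sign-flip permutation test, p = 0.000977, the smallest that 11 rats can give, and 0.00586 adjusted over 6 pairs of neighbours). Below it the order was miR-301a-3p, miR-130b-3p, miR-130b-5p, miR-130a-5p, miR-301a-5p and miR-301b-3p. On log2(CPM + 1), none of these 5 neighbouring pairs differed beyond the spread between rats (exact adjusted p between 0.220 and 0.516, log2 differences between 0.12 and 0.33). The pseudocount of 1 CPM pulls differences of rows this rare toward 0. Over all rats miR-301a-3p had 91 reads and miR-130b-3p 51, while miR-301a-5p had 17 and miR-301b-3p 9. The difference of 4.09 is shrunk too, and was 4.55 with a pseudocount of 0.5 CPM. Ligation and amplification differ between microRNAs, so levels of different members are compared as deposited.

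The row rno-miR-130a-3p had 32.4, 20.3, 39.1, 67.4, 80.8 and 40.3 CPM in Control 5, 7, 12, 16, 18 and 19. It had 12.7, 17.6, 32.5, 37.5 and 35.0 CPM in TPN 6, 8, 11, 15 and 16. The groups overlapped: the Control median of 39.7 CPM exceeded 5 of 5 TPN values, but Control 5 and Control 7 lay inside the TPN range. The mean was 46.7 CPM ± 22.8 (SD, n = 6) in Control and 27.1 CPM ± 11.1 (SD, n = 5) in TPN. On the log2(CPM + 1) scale the TPN minus Control difference was -0.74 ± 0.39 (moderated SE, 95% interval -1.57 to 0.10), with an unadjusted p of 0.0798 and an adjusted p of 0.296 over all rows (limma-trend, Benjamini-Hochberg).

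Of the 535 rows that averaged 1 CPM or more and entered this fit, 0.0% were called higher and 0.0% lower at an adjusted p under 0.05, and 0.187% and 11.2% were higher and lower at an unadjusted p under 0.05. The latter split, 1 higher against 60 lower, was 9 against 26 with TMM scaling, 6 against 28 with RLE scaling, 18 against 31 with upper-quartile scaling and 8 against 6 with limma-voom. Only 2 of the 7 members, miR-130a-3p and miR-301a-3p, reached this mean level, and 0 of them passed at either threshold. By p, miR-130a-3p stood 133rd of the 535 rows. Negative values were common in the table: among the 280 rat-named rows the log2 fold change had a median of -0.26, and 30 of them were more negative than miR-130a-3p. Set against that median, the value of miR-130a-3p was -0.47.

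**Figure D1:**
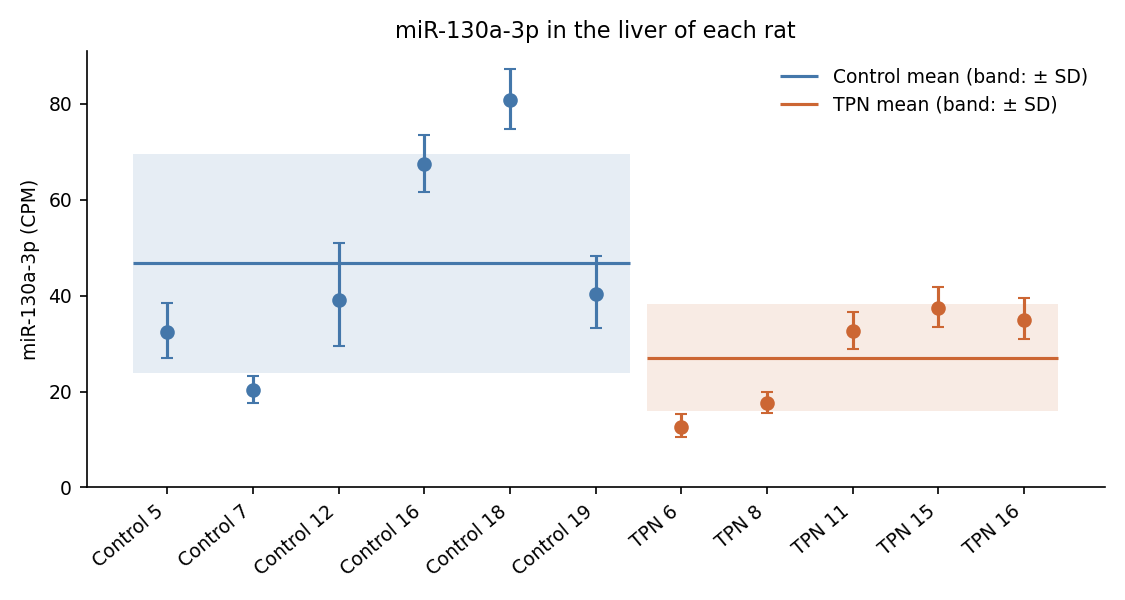
Level of miR-130a-3p in each rat (vertical axis, CPM; horizontal axis, rats by group and number). Points are the deposited values with exact 95% counting intervals, lines are group means and bands are ± SD; Control rats lie between 20.3 and 80.8 CPM and TPN rats between 12.7 and 37.5 CPM.

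The spread of miR-130a-3p within each group went with the number in the rat's name. In Control the 2 rats numbered below 10 averaged 26.3 CPM and the 4 numbered 10 or more averaged 56.9 CPM. In TPN the 2 rats numbered below 10 averaged 15.2 CPM and the 3 others 35.0 CPM. The labels do not say what the numbers stand for, and this split was looked at after the values were seen. Within each of the 2 number classes every TPN rat lay below every Control rat. That held for 36 of the 535 rows tested (6.73%) and 31 of the 280 rat-named rows (11.1%), while the opposite arrangement held for 0.187% and 0.357%. It was thus shared with many other rows. The log2 difference was -0.74 ± 0.38 (SE) in the class below 10 and -0.62 ± 0.33 in the class of 10 or more. With the number class as a covariate it was -0.66 ± 0.24 (SE). The adjusted p was 0.298 (limma-trend, Benjamini-Hochberg) and the unadjusted p 0.0189. Because the classes were taken up after the values were seen, the smaller SE and unadjusted p can follow from that choice. They are not evidence of a difference between the groups. In this covariate fit too 0 rows of the table passed in either direction, and 1 was higher and 62 lower at an unadjusted p under 0.05.

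How reads are scaled moved the size of the difference but not its sign relative to the table. The log2 fold change of miR-130a-3p was -0.27 with TMM scaling, -0.41 with RLE and -0.11 with upper-quartile scaling, where the rat-named median moved to 0.16, 0.04 and 0.31. Set against the rat-named median of the same fit, its value lay between -0.65 and -0.41 across 12 other settings and between -0.71 and -0.25 when 1 rat was left out. Without Control 5, 12 and 19 the log2 fold change was -0.92.

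Count models on the recovered reads called neither fitted member. DESeq2 called 0.935% of the 535 rows higher and 20.2% lower at an adjusted p under 0.05, and 1.68% and 34.2% at an unadjusted p under 0.05. In that fit miR-130a-3p had a log2 fold change of -0.49 (adjusted p = 0.575) and miR-301a-3p one of -0.71 (adjusted p = 0.665). The quasi-likelihood test of edgeR called 0 rows, with 1.5% higher and 29.9% lower at an unadjusted p under 0.05. It gave -0.37 for miR-130a-3p (adjusted p = 0.660) and -0.44 for miR-301a-3p (adjusted p = 0.806).

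**Figure D2:**
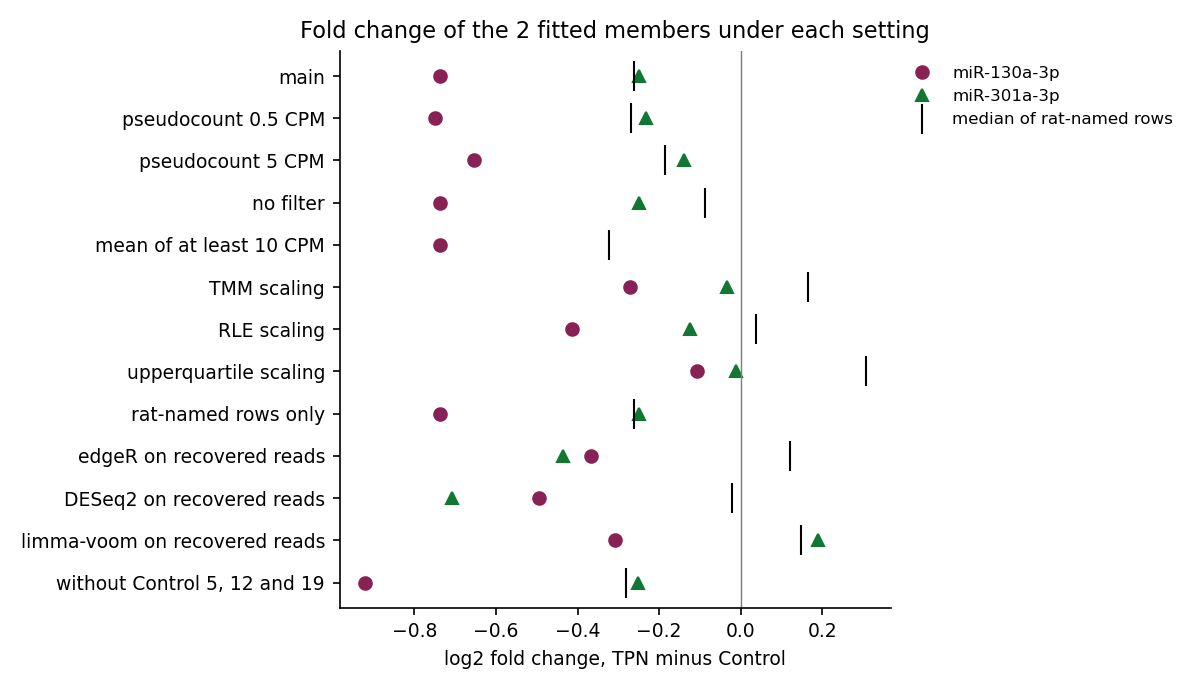
Log2 fold change of TPN minus Control (horizontal axis) for miR-130a-3p (circles) and miR-301a-3p (triangles) under the reported fit, called main, and each other setting (vertical axis), with the median of the rat-named rows as a tick. miR-130a-3p runs from -0.92 to -0.11 and lies left of the tick in every setting, while miR-301a-3p lies on both sides; it has no point for the mean of at least 10 CPM.

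The row rno-miR-301a-3p was rare. It had 0.771, 0.294, 0, 2.78, 1.12 and 4.78 CPM in Control 5, 7, 12, 16, 18 and 19, from 50 reads in all. It had 0.466, 0.879, 1.17, 1.08 and 0.662 CPM in TPN 6, 8, 11, 15 and 16, from 41 reads. The Control rats spread more widely than the TPN rats and enclosed them, with Control 19 and Control 16 the highest. The Control mean was 1.62 CPM ± 1.83 (SD, n = 6) and the TPN mean 0.850 CPM ± 0.290 (SD, n = 5). The log2 difference was -0.25 ± 0.48 (SE, 95% interval -1.29 to 0.79; limma-trend, adjusted p = 0.793), close to the rat-named median of -0.26, and it turned to 0.19 with limma-voom on the recovered reads. The 0 reads in Control 12 had an exact 95% counting interval of 0 to 2.63 CPM. Without Control 19 its mean fell below the 1 CPM filter and it was not tested.

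The row rno-miR-130b-3p, the member most like miR-130a-3p in sequence, had 51 reads in all. It had 0.514, 0.294, 0.712, 0.927, 0.624 and 0.683 CPM in Control 5, 7, 12, 16, 18 and 19. It had 0.116, 0.541, 1.28, 1.08 and 0.265 CPM in TPN 6, 8, 11, 15 and 16. The groups overlapped fully, and the TPN rats held both the lowest and the highest value. The mean was 0.626 CPM ± 0.212 (SD, n = 6) in Control and 0.657 CPM ± 0.507 (SD, n = 5) in TPN. Fitted without the filter on low values, its log2 difference was -0.02 ± 0.34 (95% interval -0.75 to 0.72; limma-trend, adjusted p = 0.980). On this scale the pseudocount of 1 CPM keeps differences of so rare a row small.

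The other 4 rows were at the edge of detection. miR-130b-5p had 39 reads in 9 of 11 rats, with 0 to 0.771 CPM in Control and 0.233 to 0.933 CPM in TPN. miR-130a-5p had 26 reads in 7 rats, of which Control 5 alone gave 9, at 2.31 CPM against at most 0.582 CPM elsewhere. miR-301a-5p had 17 reads in 7 rats, with 0 to 0.294 CPM in Control and 0 to 0.794 CPM in TPN. miR-301b-3p, which shares a locus with miR-130b, had 9 reads. Of these, 2 were in Control 18 and 7 in TPN 8, 11 and 16. Pooled over reads, miR-301b-3p stood at 0.0589 CPM in Control (exact interval 0.00713 to 0.213) and 0.146 CPM in TPN (0.0588 to 0.301), intervals that overlap and cover counting error only. In the fit without the filter, 0 of the 7 members passed, as did 0.0% of the 1316 rows in either direction; 0.456% were higher and 5.24% lower at an unadjusted p under 0.05, and 0 members were.

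**Figure D3:**
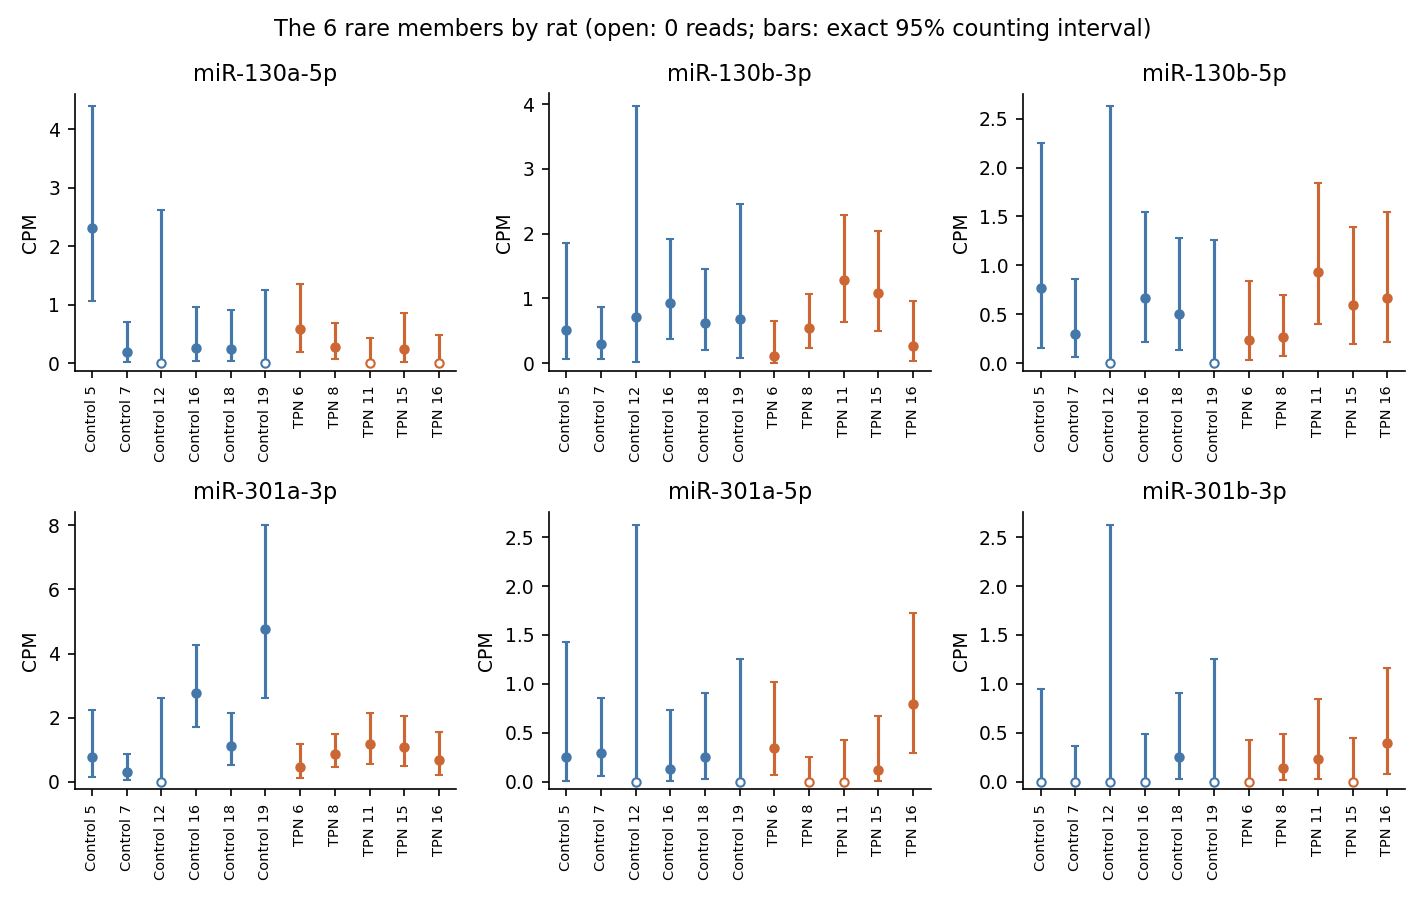
Levels of the 6 members other than miR-130a-3p in each rat (vertical axes, CPM, each with its own scale; horizontal axes, rats by group and number), with exact 95% counting intervals and open points for 0 reads. Control 12, the shallowest library, has wide intervals, and the highest points are miR-301a-3p in Control 19 (4.78 CPM) and Control 16 (2.78 CPM) and miR-130a-5p in Control 5 (2.31 CPM).

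The share of reads from the 3p arm was described for each hairpin, with no test between them. For miR-130a, 2888 of 2914 reads of both arms came from the 3p arm, or 99.1% (exact 95% interval 98.7% to 99.4%), and this was 99.1% in Control and 99.1% in TPN. For miR-301a the 3p share was 84.3% (76.0% to 90.6%) of 108 reads, with 87.7% in Control and 80.4% in TPN. In single rats it ran from 45.5% (TPN 16) to 100%. For miR-130b it was 56.7% (45.8% to 67.1%) of 90 reads, with 57.1% in Control and 56.4% in TPN, and single rats ran from 28.6% (TPN 16) to 100%. The pooled intervals cover counting error only and not the spread between rats, over which the shares of miR-301a and miR-130b overlapped. Control 5 had the lowest 3p share of miR-130a, 93.3% of 135 reads.

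With no pseudocount, ratios of members within a library would not depend on how the library is scaled. Here 1 CPM was added, and the rows divided by averaged near or under that level. The scale of the library therefore stayed in these ratios, of which 6 were compared. The log2 ratio of miR-130a-3p to miR-130b-3p averaged 4.75 ± 0.57 in the Control rats (SD, n = 6), while the TPN rats averaged 4.03 ± 0.51 (SD, n = 5). This difference of -0.72 had a 2-sided exact permutation p of 0.0606 over 462 regroupings and 0.364 adjusted over the 6 ratios. On log2(CPM + 1) it is the -0.74 of miR-130a-3p less the -0.02 of miR-130b-3p. It is thus not a separate result. Single rats ran from 4.04 to 5.65 in Control and from 3.60 to 4.83 in TPN, and the groups overlapped. The other 5 ratios differed by between -0.56 and 0.23 (exact permutation adjusted p between 0.588 and 0.630), and single rats moved them. The values that follow are TPN minus Control differences of the log2 ratios, with 1 rat left out. For miR-130a-3p to miR-130a-5p the difference ran from -0.89 (without Control 5) to -0.23 (without TPN 6). For miR-130a-3p to miR-301a-3p it ran from -0.78 (without Control 19) to -0.29 (without Control 12). For the miR-301a arms it ran from -0.52 (without Control 7 or Control 12) to -0.015 (without Control 19). For the miR-130b arms the difference, -0.20 over all rats, came nearest to 0, at -0.083, without TPN 16. For miR-130b-3p to miR-301a-3p it was 0.23 over all rats, 0.47 without Control 12 and -0.037 without Control 19. This last log2 ratio itself averaged -0.43 in Control and -0.20 in TPN. In all but TPN 11 and TPN 15 miR-130b-3p lay under the pseudocount.

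**Figure D4:**
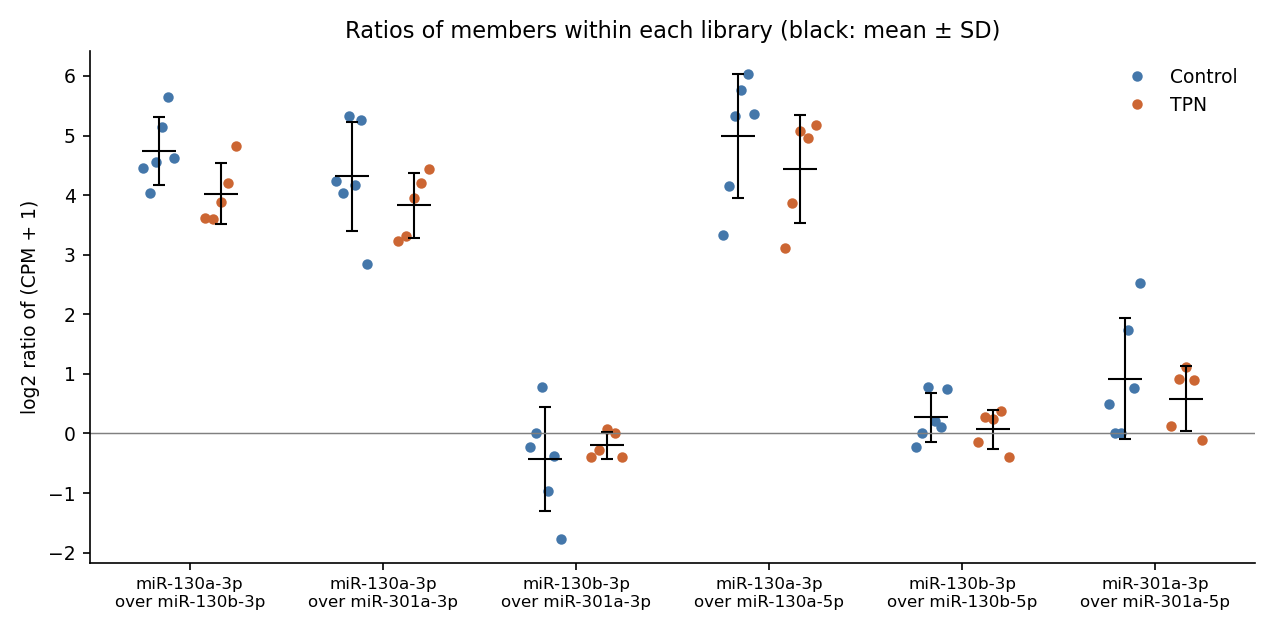
Log2 ratio of (CPM + 1) of pairs of members (vertical axis) for each rat, by pair (horizontal axis) and group, with mean ± SD in black. miR-130a-3p exceeds miR-130b-3p and miR-301a-3p by far in both groups, and Control and TPN points overlap in each of the 6 ratios.

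Levels of miR-130a-3p, miR-130b-3p and miR-301a-3p were positively correlated across rats, but no pair passed a test. The highest rat differed: Control 18, TPN 11 and Control 19. Over all rats miR-130b-3p rested on 51 reads and miR-301a-3p on 91. Across the 11 rats, miR-130a-3p and miR-130b-3p had a Pearson r of 0.552 (permutation p = 0.0757) and a Spearman rho of 0.545 (permutation p = 0.0858). For miR-130a-3p and miR-301a-3p these were 0.434 (p = 0.178) and 0.527 (p = 0.0985), and for miR-130b-3p and miR-301a-3p 0.399 (p = 0.226) and 0.573 (p = 0.0711), all by permutation. Adjusted over the 3 pairs, the permutation p was 0.226 for each r and 0.0985 for each rho. Without the 2 rats farthest from the median of the first member of each pair, r was 0.462, 0.477 and 0.402. Without Control 5, 12 and 19 it was 0.546, 0.719 and 0.699 (n = 8). With group means removed it was 0.625, 0.402 and 0.401.

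Among 167 other rat-named rows averaging 10 CPM or more, the patterns most like that of miR-130a-3p over the 11 rats belonged to miR-184, an epithelial and eye lens microRNA, miR-24-3p, and miR-140-5p, known from cartilage. Their Spearman rho was 0.700, 0.700 and 0.673, and their Pearson r 0.800, 0.591 and 0.792, where the median rho of the 167 rows was -0.10. Without Control 5, 12 and 19 the rho was 0.786, 0.929 and 0.905. miR-184 had a mean of 25.4 CPM in Control and 15.5 CPM in TPN, and miR-140-5p 41.1 and 36.8 CPM. For miR-130b-3p the nearest rows were let-7i-5p, miR-184 and miR-361-3p (rho 0.627, 0.564 and 0.536; r 0.444, 0.501 and 0.454), with rho of 0.762, 0.548 and 0.690 without Control 5, 12 and 19. For miR-301a-3p they were miR-184, miR-199a-5p and miR-200b-3p (rho 0.473, 0.418 and 0.364; r 0.371, 0.578 and 0.032). Without those 3 rats the rho was 0.619, 0.071 and 0.476, so the likeness of miR-199a-5p rested on them. miR-184 was among the nearest 3 rows of all 3 members for which likeness was computed. These values are descriptions with no test, and rows of one library share its depth and total.

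Marker microRNAs of cell types in liver were set beside miR-130a-3p, since in whole tissue fewer cells of a type and less RNA per cell cannot be told apart. Across the 11 rats its log2 level had a Pearson r between -0.252 (mesenchymal list) and 0.497 (endothelial list) with the 6 list sums, and none passed (permutation p adjusted over 6 lists between 0.643 and 0.919). Spearman rho ran from -0.236 to 0.609 (adjusted permutation p between 0.303 and 0.756). With group means removed, which was tried after the values were seen, r was 0.804 with the hepatocyte list (adjusted p = 0.0107, permuted within groups) and -0.804 with the red cell list of miR-451 and miR-144 (adjusted p = 0.0169). For the mesenchymal list it was -0.684 (adjusted permutation p = 0.0696) and for the endothelial list, miR-126a, 0.551 (0.156). For the immune and the biliary and epithelial lists it was -0.238 and 0.167 (0.616 and 0.628, by permutation). Because this step was chosen after the values were seen, its p-values are not evidence of a relation. The permutation within groups also did not keep rats within their number class.

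Those relations leaned on the rats in different ways. Without TPN 6 and Control 18, the 2 rats farthest from the median of miR-130a-3p, r within groups was 0.788 with the hepatocyte list and -0.620 with the red cell list. Without Control 5, 12 and 19 these were 0.882 and -0.889 (n = 8). With the means of the rat number classes removed as well, the hepatocyte value was 0.819 and the red cell value -0.400. In these 3 settings, in the same order, the mesenchymal value was -0.504, -0.847 and -0.405. The endothelial value was 0.347, 0.848 and 0.577, and the immune value -0.567, -0.266 and -0.380. For the biliary and epithelial list it was -0.412, 0.138 and 0.710, and so changed sign. The hepatocyte list takes most of the reads of a library, so its CPM is tied to that of all other rows. Within it miR-122-5p and miR-148a-3p had opposite extremes. miR-122-5p was highest in Control 18 (335322 CPM) and TPN 15 (227726) and lowest in Control 19 (21802) and TPN 6 (25379). miR-148a-3p was lowest in Control 18 (376313 CPM) and TPN 15 (475186) and highest in Control 19 (572421) and TPN 6 (649587). miR-130a-3p was highest in Control 18 and TPN 15 and lowest in Control 7 and TPN 6. Its relation to either row alone was not tested.

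**Figure D5:**
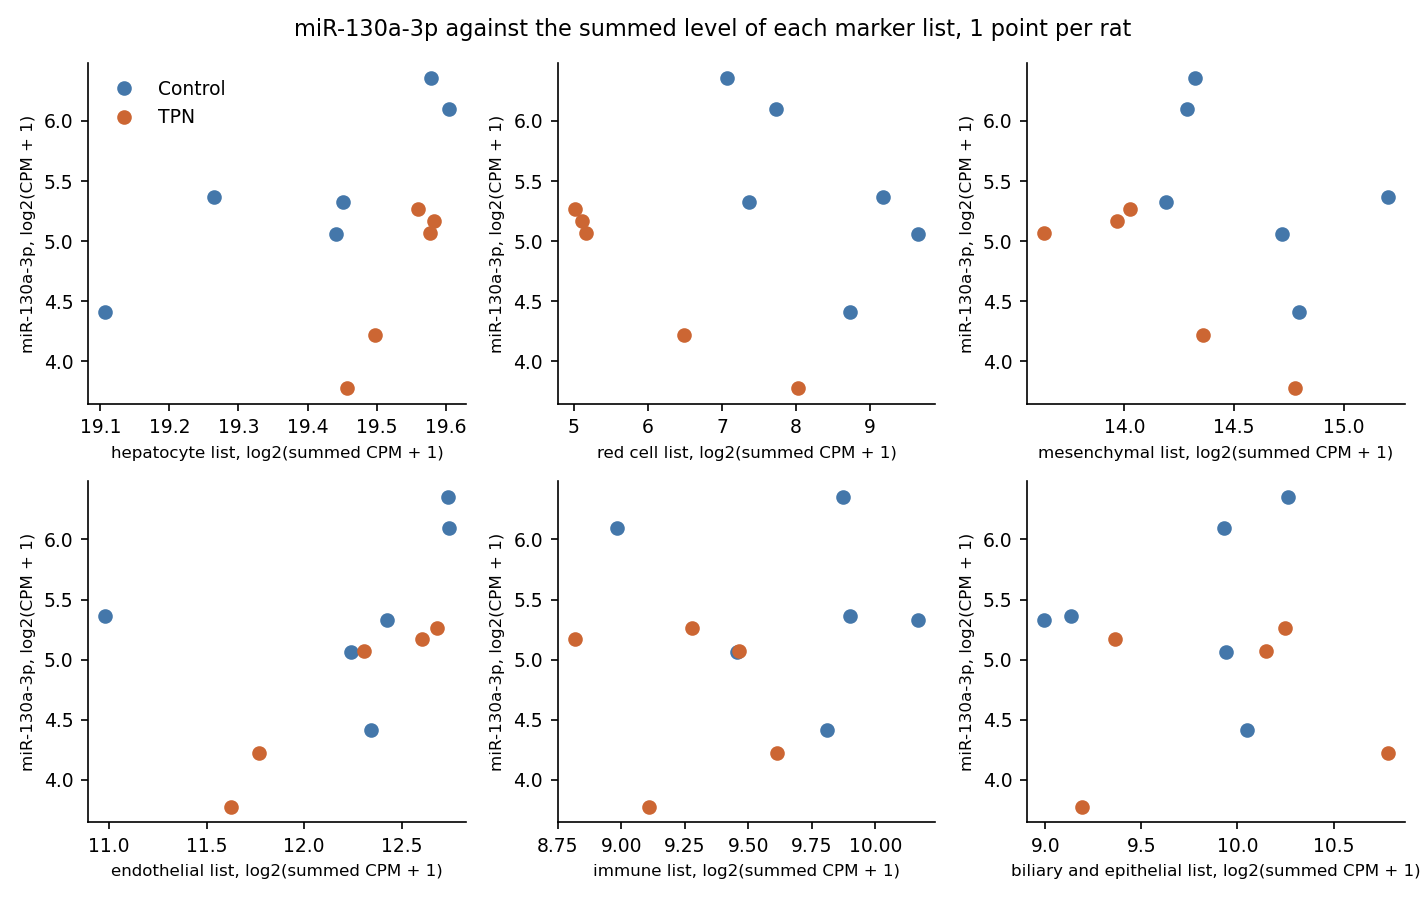
Log2(CPM + 1) of miR-130a-3p (vertical axes) against the log2 of the summed CPM + 1 of each marker list (horizontal axes), 1 point per rat, coloured by group. Within Control and within TPN the points rise with the hepatocyte list and fall with the red cell list (r of 0.804 and -0.804 with group means removed).

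Beside the difference of miR-130a-3p between groups, limma-trend, edgeR and limma-voom called 0 rows of the 6 marker lists. DESeq2 called miR-451-5p of the red cell list lower, and miR-148a-3p of the hepatocyte list and miR-200a-5p of the biliary and epithelial list higher. Over all 535 rows it called 0.935% higher and 20.2% lower. At an unadjusted p under 0.05, limma-trend had 3 red cell, 2 mesenchymal, 1 hepatocyte, 1 immune and 1 biliary and epithelial row lower. Over all 535 rows 11.2% were lower. At the same threshold edgeR had 1 red cell row lower and 2 hepatocyte and 2 biliary and epithelial rows higher. Its shares over all rows were 29.9% lower and 1.5% higher. With limma-voom 3 red cell rows were lower, and 2 hepatocyte and 2 biliary and epithelial rows higher. Over all rows it had 6 lower and 8 higher. The red cell sum was 133 to 802 CPM in Control and 31.3 to 261 CPM in TPN, with 3 of 3 tested rows negative and a median of -1.21 for the log2 fold change. The hepatocyte sum was 564720 to 797115 CPM in Control and 719785 to 785590 CPM in TPN, with 6 of 8 rows negative and a median of -0.21. The mesenchymal sum (miR-143, miR-145, miR-199a and miR-214) was 18657 to 37661 CPM in Control and 12710 to 28086 CPM in TPN, with 7 of 7 rows negative and a median of -0.43. The endothelial sum was 2019 to 6849 CPM and 3162 to 6568 CPM, with 1 of 2 rows negative. The immune sum was 505 to 1150 CPM and 450 to 782 CPM (7 of 8 negative, median -0.33), and the biliary and epithelial sum 509 to 1230 CPM and 584 to 1759 CPM (2 of 7 negative, median 0.19). Beside these counts, 222 of the 280 rat-named rows tested were negative, with a median of -0.26. None of the listed rows was at 0 in all rats, and miR-486 of the red cell list was not analysed here. Their part in the difference of miR-130a-3p was not tested.

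Other microRNAs carry part of the same seed, and one of them, miR-148a-3p, had the highest mean CPM of the rows tested. Capitals mark the 6 bases shared with the miR-130a-3p seed inside bases 2 to 8 of each; besides the 3 strands with the whole seed, 6 of the 693 mature names (0.866%) hold such a run.
miR-148a-3p: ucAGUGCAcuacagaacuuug
miR-148b-3p: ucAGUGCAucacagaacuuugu
miR-152-3p: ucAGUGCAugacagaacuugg
miR-291b: aaAGUGCAuccauuuuguuagu
miR-19a-3p: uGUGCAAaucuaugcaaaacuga
miR-19b-3p: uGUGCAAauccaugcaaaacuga
In miR-148a-3p, miR-148b-3p, miR-152-3p and miR-291b the run sits 1 base further from the 5′ end than in miR-130a-3p, and in miR-19a-3p and miR-19b-3p the run matches the last 6 bases of the miR-130a-3p seed. A shared run of letters is a description and does not show that the microRNAs share targets.

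These 6 rows together held 480608 CPM ± 90501 (SD, n = 6) in Control and 565529 CPM ± 75074 (SD, n = 5) in TPN, nearly all of it miR-148a-3p, against a family sum of 21.7 to 83.8 CPM in Control and 14.4 to 40.6 CPM in TPN. miR-148a-3p, also linked to cholesterol export through Abca1 in human and mouse liver cells, had a log2 difference of 0.25 ± 0.23 (SE; limma-trend, adjusted p = 0.509), and DESeq2 called it higher (0.57, adjusted p = 0.00356). miR-148b-3p had -0.49 ± 0.29 (limma-trend, adjusted p = 0.311). By limma-trend 0 of the 6 rows were called, also at an unadjusted p under 0.05, and 4 were negative and 2 positive, with a median log2 difference of -0.44 beside -0.26 over the rat-named rows and -0.56 over all rows tested. miR-130a-3p and miR-148a-3p thus had values of opposite sign on the deposited scale, and neither passed in that fit.

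The wider list of microRNAs known to act on lipid metabolism (miR-33, miR-122, miR-148a, miR-128, miR-27b, miR-30c, miR-223, miR-144, miR-758, miR-378a and miR-370) had 21 rows, of which 17 were tested. By limma-trend 0 were called, with 2 lower at an unadjusted p under 0.05, beside 11.2% of all rows tested. These 2 were the arms of miR-144, which also count among the red cell rows above. DESeq2 called miR-148a-3p and miR-378a-3p higher, beside 0.935% of all rows. In the limma-trend fit 3 were positive and 14 negative, with a median log2 fold change of -0.12 and a range from -1.21 to 0.25, beside 58 positive and 222 negative rat-named rows. Its 2 most abundant rows were miR-148a-3p, given above, and the liver-specific miR-122-5p, with -0.03 ± 0.78 (SE; limma-trend, adjusted p = 0.990). miR-130a-3p, at -0.74, lay below the median of the list and inside its range, whose low end, -1.21, was miR-144-3p.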

How the data were processed

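Liver RNA was extracted with TRIzol and its small RNA read on a HiSeq 4000, per the labels' protocols. Values in CPM stood in 1 table deposited by the authors, whose columns each sum to 1000000. DESeq2 is named without a role or version, per the submitters' processing notes. Of the aligner, the counting, the microRNA database, the build and any filter, none is given in the sources used here. All non-zero values (100%) were whole multiples of the column minimum (tolerance 0.001), so reads were recovered: 1404858 to 14788757 per library. As a rough floor, a count of 0 was taken to allow up to 3 reads, 0.203 to 2.14 CPM. The exact 2-sided intervals of a 0 reach higher, to 2.63 CPM in Control 12. Intervals are exact Clopper-Pearson (95%) and, without molecular identifiers, cover counting error only.

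TPN was compared with Control by limma-trend on log2(CPM + 1) over all rows averaging 1 CPM or more, with Benjamini-Hochberg adjustment over all of them and no covariate (R 4.3.3, limma 3.58.1). edgeR 4.0.16 (quasi-likelihood), DESeq2 1.42.0 and limma-voom were run on the recovered reads, and other pseudocounts, filters, scalings and library sets were tried. The deposited unit was CPM, so the test planned for CPM was used. Ratios and orders were tested by exact permutation over rats, and correlations by 100000 permutations (scipy 1.17.1). The fits were tested on simulated counts. Figures were drawn with matplotlib 3.10.9.

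All members were named, with the 3 rows of highest Spearman rho to each of 3 members, rows sharing seed letters and marker lists. The members and lists were chosen with earlier results of these data known. The labels do not say whether rats shared litters, cages or library batches, and no batch is named. The closest libraries, Control 16 and Control 18, differed far beyond counting noise (chi-square divided by its degrees of freedom, 142). Each sample is titled as its own rat, and p-values measure the spread between these rats.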

Additional observations from a re-analysis of the deposited data

Results flagged for a closer look

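In all, 40 sets of Control or TPN values were examined: the members, their sum, their ratios and the 6 marker list sums. Of these, 3 held a rat far from the others by Dixon's test. Its chance rate of about 1 of 20 holds for independent sets of normally spread values. These sets share rows, and some hold tied values of 0, so that rate does not apply here. Control 5 had 2.31 CPM of miR-130a-5p, where the next Control rat had 0.265 CPM. Control 18 was the only Control rat with reads of miR-301b-3p, 0.250 CPM from 2 reads. TPN 6 had a red cell sum of 261 CPM, where the next TPN rat had 88.4 CPM, and TPN 6 also had the lowest miR-130a-3p of all rats, 12.7 CPM.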

How the results depend on the processing

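No paired analysis was possible because Control and TPN share only the rat number 16. The count of rows called was 0 higher and 0 lower in every setting except DESeq2, which called 5 higher and 108 lower. miR-130a-3p kept a negative value and stayed uncalled in all settings, between -0.94 (without Control 7) and -0.51 (without TPN 6) when 1 rat was left out and between -0.92 and -0.11 otherwise. miR-301a-3p ran from -0.47 to -0.09 with 1 rat left out and turned to 0.19 with limma-voom. The TPN minus Control difference in the log2 ratio of miR-130b-3p to miR-301a-3p turned from 0.23 to -0.037 without Control 19. Its leave-one-out range was -0.037 to 0.47, and it turned to -0.23 in rats numbered below 10. In the same rats the difference for miR-130b-3p to miR-130b-5p turned to 0.18 and that for miR-301a-3p to miR-301a-5p to 0.27. The class below 10 holds 2 Control and 2 TPN rats, a size at which the permutation test cannot pass. DESeq2 also called miR-148a-3p, miR-451-5p, miR-200a-5p and miR-378a-3p of the lists. miR-148b-3p turned to 0.17 with upper-quartile scaling and 0.012 with edgeR. The order of miR-130a-5p over miR-301a-5p turned to -0.0095 without Control 5, 12 and 19. The cause of these turns was not tested. Depth limits 5 of the 7 members, which have 9 to 51 reads over all rats.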
